A study of Mus musculus with 2 samples.

Results

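Among cultured mouse epidermal cells that carried the basal keratin Krt14, 459 of 3062 cells had the highest combined RNA of the keratins Krt8 and Krt18 and the claudins Cldn3 and Cldn7. They were chosen from these measurements. A cell entered the choice with at least 1000 CPM of Krt14, where CPM are the UMIs of a gene scaled to the usual common total per cell, and a UMI is a molecular tag that counts 1 captured RNA molecule. Its score was the mean of log2(CPM + 10) over the 4 genes, and the top 15% of the scores over both libraries were taken. These cells are called Krt18-high cells below, and the remaining 2603 cells past the Krt14 limit are called the other Krt14 cells. They made up 459 of all 3686 cells of the series.

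The series holds 2 single-cell libraries of C57BL/6 epidermal cells taken at postnatal day 1, and it asks how cells with and without Bap1 compare. The library labelled BAP1 WT came from 11 pooled Rosa26-CreERT2 neonates. The library labelled BAP1 KO came from 9 pooled Bap1fl/fl Rosa26-CreERT2 neonates. Cells of both genotypes were grown in medium M254 with human melanocyte growth supplement, were given 100 nM 4-OHT for 4 days and stood 3 more days without it. About 6000 viable cells of each went through a 10x Genomics Chromium 3′ kit after these 7 days. The inducible Cre from Rosa26 is not limited to 1 cell type, a supplement made for melanocytes was used for all cells, and each library is 1 pool. Every difference between libraries below is therefore a difference between 2 libraries: no test across samples is possible, and genotype and library cannot be told apart. Bap1 RNA was higher under the knockout label, at 17.4 CPM (248 UMIs) in Krt18-high cells against 11.6 CPM (100 UMIs) under the wild-type label. The kit reads transcript ends and the deleted exons are not named in the sources used here, so these UMIs check nothing about the labels, which are used only as the names of the libraries.

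Keratins are the intermediate filament proteins of epithelial cells. Krt8 and Krt18 are the partner keratins of simple, one-layered epithelia such as gut and gland ducts, whereas basal keratinocytes of the epidermis build filaments from Krt5 and Krt14. Cldn3 and Cldn7 are claudins, the membrane proteins that seal neighbouring epithelial cells at tight junctions. In skin, Krt8 and Krt18 are best known from the embryonic periderm and from Merkel cells, the touch-sensing cells that also carry Krt20 and the factor Atoh1.

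Krt8 and Krt18 lie side by side on chromosome 15 (GRCm38.p6 coordinates from RefSeq), Krt8 at chr15:101996711-102004342 on the minus strand and Krt18 at chr15:102028216-102032026 on the plus strand, 23873 bases apart with 2 other annotated genes between them. Their promoter windows are shown because the scores turned mainly on this pair, and that of Acta1, the skeletal muscle actin, because Acta1 was among the genes higher in the same cells. Each window, from RefSeq, runs from 250 bases before the annotated start of the gene to 50 bases after it, 5′ to 3′ on the strand of the gene. Capitals mark matches to the 7 motifs searched on both strands, which were the CArG box of serum response factor, the GRHL site AACCGGTT, the AP-1 site TGANTCA, the TEAD site CATTCC, the SP1 site GGGCGG, the TATA box TATAAA and the E-box CACGTG.
Krt8 chr15:102004293-102004592, minus strand: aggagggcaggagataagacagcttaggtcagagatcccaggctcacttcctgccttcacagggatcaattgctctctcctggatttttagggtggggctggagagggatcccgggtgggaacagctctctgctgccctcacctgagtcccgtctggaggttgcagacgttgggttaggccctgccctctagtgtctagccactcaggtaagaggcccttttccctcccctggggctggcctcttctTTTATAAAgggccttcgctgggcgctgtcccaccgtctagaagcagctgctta
Krt18 chr15:102027966-102028265, plus strand: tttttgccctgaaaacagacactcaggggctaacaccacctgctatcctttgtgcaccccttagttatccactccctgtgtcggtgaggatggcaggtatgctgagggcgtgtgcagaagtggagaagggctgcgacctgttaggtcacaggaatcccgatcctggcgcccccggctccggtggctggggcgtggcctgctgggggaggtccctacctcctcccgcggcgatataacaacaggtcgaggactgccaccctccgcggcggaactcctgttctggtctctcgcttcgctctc
Acta1 chr8:123894726-123895025, minus strand: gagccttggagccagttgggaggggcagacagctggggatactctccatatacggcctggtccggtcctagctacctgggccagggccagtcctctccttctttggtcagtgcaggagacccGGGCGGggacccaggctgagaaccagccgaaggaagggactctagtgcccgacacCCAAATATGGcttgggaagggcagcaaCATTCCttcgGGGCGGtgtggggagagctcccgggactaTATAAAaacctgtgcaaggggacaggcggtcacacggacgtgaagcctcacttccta
The Krt8 window held 2 overlapping TATAAA matches, 1 on each strand, a motif found in 13.6% of 32851 such windows. None of the 7 motifs was in the Krt18 window. The Acta1 window held a CArG box, a motif found in 1.63% of windows, a CATTCC (14.7% of windows), GGGCGG at 2 places (35.7% of windows) and a TATAAA. The remaining motifs, TGANTCA (7.81% of windows), the E-box letters CACGTG (7.15%) and the GRHL letters AACCGGTT (0.146%), were in none of the 3 windows. The matches describe letters and are no measure of binding.

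The WT-labelled library held 173 Krt18-high cells of 1702 Krt14 cells, a share of 10.2% (exact Clopper-Pearson interval at 95%, 8.77 to 11.7%). The KO-labelled library held 286 of 1360, or 21.0% (18.9 to 23.3%), a ratio of 2.07 between the shares. Of all cells the shares were 8.98% and 16.2%, with a ratio of 1.81. All intervals here cover counting error only, and since the members were ranked over both libraries, the share describes these libraries and was not tested. The score had no separate peak of high cells. Over both libraries it was fullest between 10 and 10.25 (340 cells) and only fell from there, through the limit of 10.775 to a maximum of 12.1. The fullest step of the KO-labelled library alone lay just under the limit, at 10.5 to 10.75, and that of the WT-labelled library at 10 to 10.25. The 10th cell inside the limit scored 10.785 and the 10th outside 10.768, and 81 of the 459 members lay within 0.1 of it, 36 of them in the WT-labelled library and 45 in the KO-labelled one. The Krt18-high cells are therefore the upper end of a range and are not a type with a border.

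**Figure D1:**
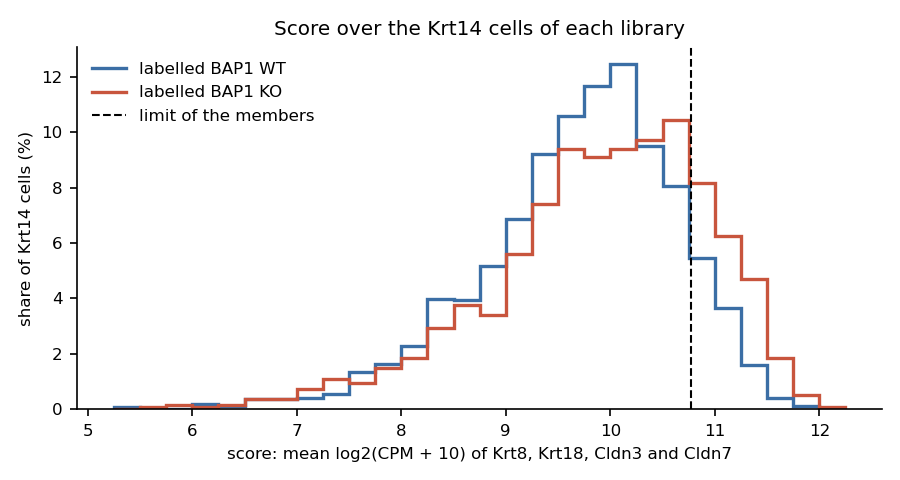
Share of the Krt14 cells of each library (vertical axis, %) in steps of 0.25 of the score (horizontal axis, mean log2(CPM + 10) of the 4 genes), with the limit of 10.775 as a dashed line and the members (Krt18-high cells) to its right. Both libraries form 1 broad range with no separate peak past the limit, which 21.0% of the KO-labelled and 10.2% of the WT-labelled Krt14 cells pass.

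The Krt18-high cells were deeply sequenced, with a median of 47390 UMIs in the WT-labelled and 50228 in the KO-labelled library, against 38509 and 34417 in the other Krt14 cells. Summed, they held 8652231 and 14215944 UMIs. Scrublet, a caller that marks droplets with 2 cells, marked none of them and marked 1 and 7 cells in the whole libraries. Members above 2 times their library's median depth numbered 16 (9.25%) and 34 (11.9%), against 5.95% and 4.84% of the other Krt14 cells, and the part of depth in the results was not tested beyond the thinned choice given in the closing section. The libraries shared 3 cell barcodes, 1 of them of a Krt18-high cell.

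The 4 genes of the score are given first as a description, because they chose the cells. Krt18 had a median over cells of 11592 CPM in Krt18-high and 2493 CPM in other Krt14 cells of the WT-labelled library, and 15488 and 3420 CPM in the KO-labelled one. Krt8 stood at 738 against 223 CPM and at 986 against 319 CPM. Cldn3 stood at 2007 against 1169 CPM and at 1905 against 935 CPM. Cldn7 stood at 1199 against 732 CPM and at 983 against 590 CPM. The keratins thus differed more than the claudins between the classes, and together the 4 genes made up 1.76% and 2.09% of the UMIs of Krt18-high cells. Krt14, which set the entry, was nearly level in the median cell, at 4339 against 3890 CPM and 3298 against 3087 CPM. Its sums were not level along the score. With all Krt14 cells ranked by score into 10 classes, it went from 10110 CPM in the lowest to 5119 CPM in the highest WT-labelled class. In the KO-labelled library it went from 7667 CPM in the lowest to 3598 CPM in class 9.

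A cell could pass by its keratins or by its claudins. Of the WT-labelled members 59.5% were also in the top 15% of Krt14 cells by Krt8 alone, 64.2% by Krt18, 44.5% by Cldn3 and 53.2% by Cldn7. In the KO-labelled library these shares were 82.5%, 81.8%, 41.3% and 29.4%. Only 46 of the 459 were in the top 15% for all 4 genes, and 9 for none. The difference in share between the libraries came with the keratins. The top 15% by Krt8 alone took 7.34% of WT-labelled and 24.6% of KO-labelled Krt14 cells, and by Krt18 alone 9.17% and 22.3%. By Cldn3 alone they took 16% and 13.8%, and by Cldn7 alone 17.8% and 11.5%, with the WT-labelled library the higher.

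Krt8 and Krt18 rose and fell together over single Krt14 cells, with Spearman correlations of 0.73 (1702 cells) and 0.84 (1360 cells), and Cldn3 with Cldn7 at 0.60 and 0.62. Between the pairs the correlations were 0.26 to 0.51 in the WT-labelled and 0.38 to 0.50 in the KO-labelled library. These are descriptions over cells that share a library and a depth. Inside the Krt18-high class, where the sum is held high by the choice, Krt8 and Cldn3 correlated at -0.45 and -0.12. The class held 17.9 and 16.7 UMIs of Krt18 per UMI of Krt8, above the 13.03 and 11.9 of the other Krt14 cells.

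The label of a simple epithelium was checked on genes outside the score, and these went different ways. Krt7, a further simple-epithelial keratin, had a median of 5049 against 3386 CPM in the WT-labelled and 4118 against 2542 CPM in the KO-labelled library, and its log2 ratio of summed UMIs was 0.21 and 0.50. Krt19, another, was lower in the sums, with log2 ratios of -0.66 and -1.42, but higher in the median cell, at 49.1 against 32.5 CPM and 36.1 against 19.7 CPM. Its sum in the other Krt14 cells sat in few cells: 81.9% and 89.3% of those UMIs lay in the highest 10% of cells. With the cells of clusters 5 and 6 (described below) left out, the sums turned, to log2 ratios of 0.91 and 0.04. Krt7, Krt19, Krt20 and Krt23 summed, nearly all of it Krt7, had a median of 5273 against 3533 CPM and 4210 against 2705 CPM. Epcam, an epithelial adhesion molecule, gave 0.30 and -0.12. Elf3, an epithelial transcription factor, was lower in the sums of both, at -0.73 and -0.61. Its median cell was not lower, at 11.1 against 0 CPM and 0 against 0 CPM. Of the list of simple epithelial transcription factors, 1 and 2 of 21 measured genes were at least 1.5-fold higher (4.76% and 9.52%, against 3.35% and 4.2% of all genes) and 4 and 4 were lower (19.05% each, against 15.1% and 17.1% of all genes). Krt7 and Krt19 were thus higher in the median cell. Elf3 was lower in the sums, not lower in the median cell and not higher in thinned detection. The transcription factors as a list were near the share of all genes.

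The defining markers of Merkel cells were at or near 0 in this class. Atoh1 had 0 UMIs in the Krt18-high cells of both libraries, and 9 and 10 of the 15 genes of the Merkel cell list were at 0, against 2 and 4 in the more numerous other Krt14 cells. Krt20 had 39 and 83 UMIs, in 33 of 173 (19.1%) and 55 of 286 (19.2%) Krt18-high cells against 9.03% and 6.52% of the other Krt14 cells. With every cell thinned to 8000 UMIs these shares were 2.89% (0.945 to 6.62%) against 1.64% (1.06 to 2.40%), and 3.5% (1.69 to 6.34%) against 1.58% (0.925 to 2.52%), too few for a reading. Detection of Krt8 was not limited to Krt14 cells. Cluster 10, led by the myeloid genes Fcer1g and Lyz2, held 0 cells past the Krt14 limit. After thinning, a Krt8 UMI was found in 61.1% (22 of 36) and 75% (15 of 20) of its cells, against 99.4% and 100% of Krt18-high cells. Whether free RNA was the source of those UMIs was not tested. Because detection reached so far, levels are compared for Krt8 and Krt18. Lists of other cell types were low and close to those of the other Krt14 cells. The 11 melanocyte genes summed to a median of 307 and 264 CPM, against 323 and 277 CPM. The Schwann and glia list stood at 44.9 and 23.1 CPM against 47.4 and 29.9 CPM, the fibroblast list at 22.2 and 24.1 CPM against 24.2 and 30.9 CPM, and the myeloid list at 19.1 and 14.1 CPM against 23.0 CPM and 0.

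**Figure D2:**
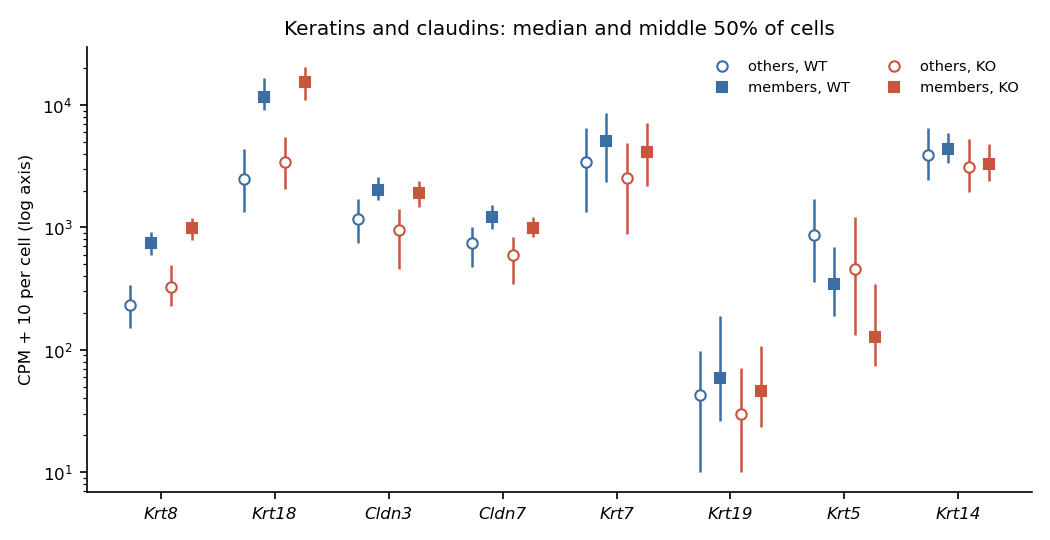
CPM + 10 per cell on a log axis for the 4 score genes and for Krt7, Krt19, Krt5 and Krt14, in Krt18-high cells (members, filled squares) and other Krt14 cells (open circles) of the WT-labelled (blue) and KO-labelled (red) library. Points are medians over cells and lines span the middle 50% of cells, and the squares lie above the circles for all genes shown except Krt5.

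The basal keratin Krt5 went the opposite way to Krt18. Its summed level was 507 CPM in Krt18-high and 1159 CPM in other Krt14 cells of the WT-labelled library and 278 against 797 CPM in the KO-labelled one, log2 ratios of -1.19 (interval -1.24 to -1.15) and -1.52 (-1.57 to -1.47). The medians over cells, 336 against 854 CPM and 116 against 448 CPM, show the same difference in the typical cell. With all Krt14 cells ranked by score into 10 classes, Krt5 went down from 2304 CPM in the lowest to 470 CPM in the highest class in the WT-labelled library and from 1574 to 243 CPM in the KO-labelled one, while Krt18 climbed from 840 to 15270 CPM and from 1661 to 18930 CPM. Krt5 was at least 1.5-fold lower in the top 15% by each score gene alone in each library, 8 of 8 choices, with log2 ratios from -1.195 to -0.69. Trp63, the transcription factor of basal keratinocytes, gave -0.61 and -1.29 (157 and 98 UMIs in Krt18-high cells). It was at least 1.5-fold lower in 5 of the 8 choices. A Trp63 UMI was found in 48.6% against 46.3% of cells in the WT-labelled and 16.1% against 29.6% in the KO-labelled library.

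Other genes of the basal layer were lower too, the more so in the KO-labelled library. Of 16 measured genes of the basal keratinocyte list, 5 were at least 1.5-fold lower and 0 higher in the WT-labelled library, and 10 lower and 1 higher in the KO-labelled one, where 15.1% and 17.1% of all genes measured were lower and 3.35% and 4.2% higher by that much. The list medians were -0.39 and -0.84, against -0.11 and -0.17 over all genes. Col17a1, a collagen of the hemidesmosomes that anchor basal cells, stood at 9.13 against 36.0 CPM and 1.97 against 13.6 CPM. Dst, a hemidesmosome linker, stood at 54.0 against 81.2 CPM and 22.1 against 52.1 CPM. Krt17, a keratin of hair follicles and activated skin, went with Krt18, at 24936 against 17117 CPM and 22680 against 15532 CPM.

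**Figure D3:**
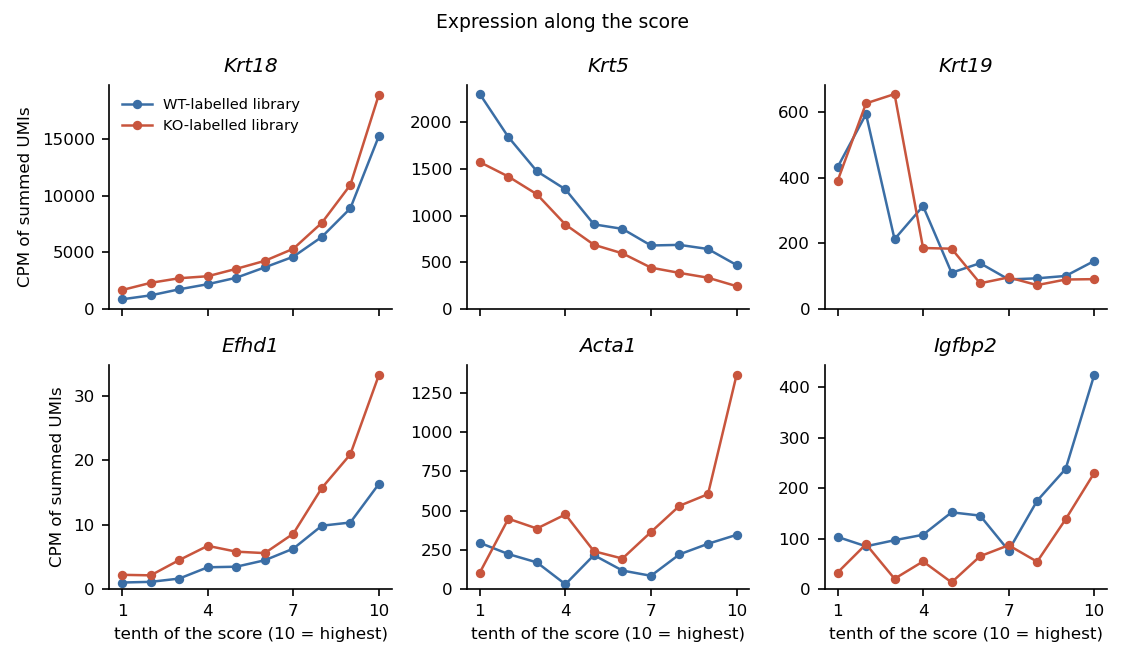
CPM of summed UMIs (vertical axis, from 0) of 6 genes in 10 classes of the score over all Krt14 cells (horizontal axis, 10 is the highest), for the WT-labelled (blue) and KO-labelled (red) library. Krt5 goes down from 2304 to 470 CPM and from 1574 to 243 CPM as Krt18, which is part of the score, climbs, Efhd1 climbs with the score in both libraries, Krt19 is highest in low classes, and Acta1 and Igfbp2 are uneven below the highest classes.

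Few genes set the Krt18-high cells apart upwards. Of 11481 genes with at least 100 UMIs in each library, 17 (0.148%) were at least 2-fold higher in Krt18-high than in other Krt14 cells of both libraries, and 261 (2.27%) were lower. The rule used this contrast, and the 17 include Krt8 and Krt18 of the score, so these counts are descriptions. The median log2 ratio over all those genes was -0.09 and -0.15. The 12 genes named were those with the largest ratio outside the score genes, and they are given by role.

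Efhd1, a calcium-binding protein of mitochondria, was the clearest. It stood at 13.6 against 4.55 CPM in the WT-labelled library (log2 ratio 1.58, 1.26 to 1.90) and at 30.7 against 7.71 CPM in the KO-labelled one (1.99, 1.78 to 2.21). It was found in 32.4% against 10.2% and 41.6% against 16.1% of cells, and after thinning in 9.25% (5.38 to 14.6%) against 3.47% (2.61 to 4.51%) and in 16.1% (12.02 to 20.9%) against 5.31% (4.04 to 6.82%). In myeloid-like cluster 10 it was found in 0 of 36 and 0 of 20 thinned cells, which allows shares of up to 9.74% and 16.8%. Its log2 ratio was 0.87 or more in the top 15% by each of the 4 score genes alone, in both libraries. Along the classes of score it went from 1.02 to 16.3 CPM and from 2.21 to 33.2 CPM.

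Genes of the actin and muscle type formed a group among the higher ones. Acta1, skeletal muscle actin, reached 374 against 163 CPM and 1208 against 345 CPM, log2 ratios of 1.198 and 1.81. Its medians over cells were far lower, 18.2 against 14.4 CPM and 69.9 against 47.4 CPM, so a minority of cells held most of it. Lmod1, a leiomodin that starts actin filaments in smooth muscle, gave 6.13 against 2.97 CPM and 12.45 against 4.598 CPM. Coro2b, a coronin that binds actin, gave 4.39 against 1.62 CPM and 7.46 against 1.93 CPM. Acta2, smooth muscle actin, was outside the 12 and stood at 2224 against 1268 CPM and 4165 against 2576 CPM, with medians of 514 against 174 CPM and 2347 against 634 CPM. Of the contractile list as a whole, 2 of 15 and 4 of 14 measured genes were at least 1.5-fold higher, where 3.35% and 4.2% of all genes were, and 1 and 0 were lower. The medians were 0.23 and 0.39. A CArG box was in the promoter windows of 3 of 13 matched genes of this list, Myl9, Cnn2 and Vcl, and in those of 1.81% of all genes. Of the 12 named higher genes 10 had a window, and 1 of these, that of Acta1, held the box. A role of this site was not tested.

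The other named genes were of mixed role. Igfbp2, a secreted binder of insulin-like growth factors, stood at 335 against 130 CPM and 220 against 52.6 CPM. A UMI was found in 56.1% against 47.6% and 44.8% against 30.7% of cells. After thinning these shares were 26.6% against 23.6% and 23.4% against 12.7%. Single cells reached 9667 and 8162 CPM in the Krt18-high class and 11560 and 12040 CPM in the other Krt14 cells. S100a4, a calcium-binding protein of motile cells, stood at 153 against 60.9 CPM and 93.1 against 42.1 CPM. Padi4, which turns arginine of proteins into citrulline, gave log2 ratios of 1.34 and 2.27. Tgm2, a protein cross-linking transglutaminase, gave 1.03 and 1.25. Mcoln3, a cation channel of endosomes whose locus overlaps Wdr63, gave 1.29 and 1.01, and Aldh1a7, an aldehyde dehydrogenase, gave 1.04 and 1.12. Ydjc and Ccdc116 overlap each other in the annotation and may share reads, with ratios of 1.02 and 1.59 for Ydjc and 1.09 and 1.48 for Ccdc116.

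Claudins outside the score were higher, and the wider junction list was so mainly in the KO-labelled library. Cldn6, a claudin of embryonic epithelia, was at 287 against 172 CPM and 349 against 199 CPM, and Cldn4 at 3050 against 2395 CPM and 3022 against 2458 CPM. Cldn1, a claudin of the epidermal barrier, was at 354 against 244 CPM and 222 against 104 CPM. Of the claudin and tight junction list without the score genes, 1 of 20 and 6 of 19 measured genes were at least 1.5-fold higher (5% and 31.6%, against 3.35% and 4.2% of all genes) and 0 were lower, with medians of 0.13 and 0.36. Of genes named from other lists, Plaur, the receptor of urokinase, was higher at 918 against 608 CPM and 1024 against 466 CPM, and F3, the tissue factor that starts clotting, at 3001 against 1836 CPM and 1406 against 751 CPM.

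Genes of cornifying and dividing cells were among those lower in Krt18-high cells. The named 12 were Spink12, Chil1, Calm4, Klk6, Cnfn, Serpinb11, Spink5, S100a8, Ly6d, Tmem45a, Sprr1b and Sprr2h. Spink12, a serine protease inhibitor, stood at 1.04 against 34.1 CPM and 0.774 against 42.4 CPM, log2 ratios of -5.03 and -5.78, the first of the 12 by rank. Cnfn and Sprr2h, proteins of the cornified envelope, stood at 11.0 against 187 CPM and 2.18 against 60.5 CPM, and at 14.1 against 164 CPM and 3.73 against 53.3 CPM. Of the cornified envelope list, 10 and 11 of 19 measured genes were lower (52.6% and 57.9%, against 15.1% and 17.1% of all genes) and 2 and 3 higher (10.5% and 15.8%, against 3.35% and 4.2%), with medians of -0.79 and -1.30. Of 30 genes of the G2 and M phase list, 30 and 27 were lower (100% and 90%, against the same shares of all genes) and 0 higher, with medians of -1.90 and -1.36. Ube2c, a ubiquitin enzyme of mitosis, stood at 30.4 against 163 CPM and 17.2 against 49.9 CPM. Of 25 genes of the S phase list, 14 and 11 were lower (56% and 44%) and 0 higher.

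In the median cell these lists were nearly level. Summed per cell, the 30 genes of G2 and M phase came to a median of 111 CPM in Krt18-high and 109.5 CPM in other Krt14 cells of the WT-labelled library and 56.9 against 60.3 CPM in the KO-labelled one. The cornified list gave 133 against 144.5 CPM and 139 against 140 CPM. For Spink12 100% of the UMIs of other Krt14 cells lay in the highest 10% of those cells in both libraries, and for Cnfn 96.5% and 100%. Cells of cluster 5 (led by Ube2c and Top2a) and cluster 6 (led by Sprr1a, Sprr2d and Cnfn) made up 28.6% and 17.2% of the other Krt14 cells but 5.78% and 4.90% of the Krt18-high cells. They held 91.3% and 90.2% of the cornified UMIs and 88.8% and 72.4% of the G2 and M phase UMIs of the other Krt14 cells. Without those clusters, 133 of the 261 genes were still 2-fold lower in both libraries and 13 of the 17 still higher.

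The Krt18-high cells of the 2 libraries lay in different clusters. In the WT-labelled library 138 of 173 (79.8%) were in cluster 0, led by the chemokines Cxcl5 and Ccl20, which held 743 WT-labelled and 26 KO-labelled cells. In the KO-labelled library 142 of 286 (49.7%) were in cluster 2, led by Acta1 and Wfdc18, and 70 (24.5%) in cluster 8, led by Acta2, Il23a and Myl9. Cluster 2 held 20 WT-labelled and 216 KO-labelled cells, and cluster 8 held 7 and 387. Cluster 2 was the one most filled by the class, with 142 of its 208 KO-labelled Krt14 cells, and Krt18 and Krt8 were among its own 10 leading genes. The Krt18-high cells of these 3 clusters were set against the other Krt14 cells of the same cluster and library.

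Among the 12 named higher genes, 7 were at least 1.5-fold higher in each of these settings. They were Efhd1, Padi4, Acta1, Ccdc116, Aldh1a7, Ydjc and Mcoln3, compared in the Krt18-high cells of cluster 0 (WT-labelled) and of clusters 2 and 8 (KO-labelled). Efhd1, Aldh1a7 and Ydjc were also at least 1.5-fold higher in all 8 choices of a top 15% by 1 score gene. Counting error is wide for some of them: the intervals lay above 0 in all 3 clusters for Efhd1, Acta1 and Ydjc, but reached below 0 in at least 1 cluster for Padi4, Ccdc116, Aldh1a7 and Mcoln3, and Aldh1a7 in cluster 8 rests on 3 and 6 UMIs. Without the cells of cluster 2 Aldh1a7 gave -0.12 in the KO-labelled library, and with Krt18 left out of the score Acta1 gave -0.19 in the WT-labelled one. Efhd1 gave log2 ratios of 1.17, 1.68 and 1.89 in the 3 clusters. Acta1 gave 2.75, 1.03 and 0.63. Igfbp2 gave 1.504 and 1.90 but 0.12 in cluster 8, where it was at 38.5 against 35.5 CPM. S100a4 gave 1.25, -0.14 and 1.08. Krt5 was lower in all 3, by log2 ratios of -0.46, -1.30 and -2.04, of which that of cluster 0 was under 1.5-fold. Krt19 gave 0.61, -0.31 and 1.27.

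**Figure D4:**
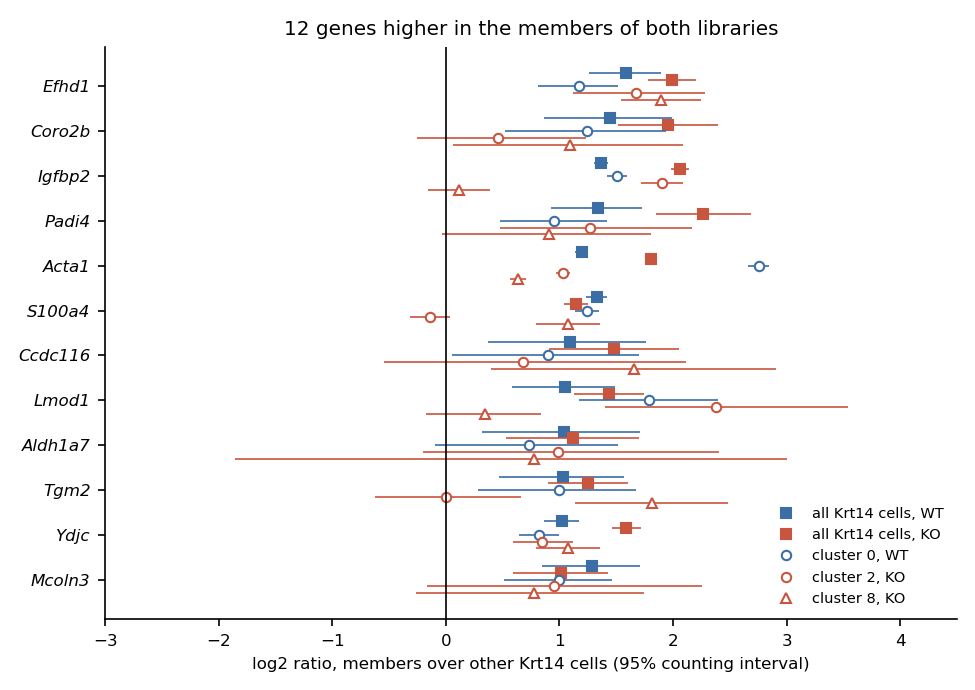
Log2 ratio of summed UMIs in Krt18-high over other Krt14 cells (members over others, horizontal axis, lines are 95% counting intervals) for the 12 named higher genes, in all Krt14 cells (filled squares) and inside cluster 0 and clusters 2 and 8 (open symbols), WT-labelled in blue and KO-labelled in red. Efhd1 lies at 1.17 or more in all 5 settings, whereas Igfbp2 is near 0 in cluster 8 and S100a4 and Tgm2 are near 0 in cluster 2.

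Contractile genes were higher in Krt18-high cells inside clusters 0 and 2. At least 1.5-fold higher in Krt18-high cells were 6 of 14 measured genes in cluster 0 (3.03% of all genes there), 8 of 14 in cluster 2 (6.96%) and 0 of 14 in cluster 8 (5.36%), with medians of 0.50, 0.60 and 0.08. Acta2 was at 2256 against 785 CPM in cluster 0, at 4221 against 2010 CPM in cluster 2 and at 6181 against 4891 CPM in cluster 8, whose other Krt14 cells already held more of it than the Krt18-high cells elsewhere. Cnn1, a calponin of smooth muscle, was at 72.2 against 19.1 CPM in cluster 0 and Actg2, enteric smooth muscle actin, at 109 against 12.4 CPM in cluster 2. The G2 and M phase medians inside the clusters were 0.03, 0.17 (8 genes) and -0.46. The basal list was lower in cluster 8, in 10 of 16 genes (11.3% of all genes there), with a median of -1.07 against -0.12 in cluster 0 and 0.13 in cluster 2.

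By its median, the contractile list followed the keratins of the score and not its claudins, whereas Acta1 under the KO label was higher by each score gene. In the top 15% by Krt8 alone the median of the contractile list was 0.37 in the WT-labelled and 0.44 in the KO-labelled library, and by Krt18 alone 0.30 and 0.38. By Cldn3 alone it was -0.49 and -0.06 and by Cldn7 alone -0.02 and 0.04. Acta1 gave 1.53 and 2.22 by Krt8, 1.27 and 2.40 by Krt18, -1.03 and 0.77 by Cldn3, and -0.79 and 0.56 by Cldn7. Igfbp2 likewise gave 1.99 and 2.04 by Krt8 but -0.39 and 0.69 by Cldn3. For the G2 and M phase list the choice by Cldn7 alone parted the libraries, with a median of -1.08 under the WT label and 1.52 under the KO label.

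The 2 main groups of KO-labelled Krt18-high cells were not alike. Those of cluster 2 held more Igfbp2 than those of cluster 8, 378 against 38.5 CPM, more Gpx2, a glutathione peroxidase, 60.2 against 6.33 CPM, and more Acta1, 1944 against 637 CPM. Those of cluster 8 held more Mdk, the growth factor midkine, 44.3 against 13.5 CPM, and more Acta2. Of 13 measured cornified genes, 8 were at least 1.5-fold higher in cluster 2 (9.46% of all genes) and 0 lower, with a median of 1.78. The claudins of the score were close, with Cldn3 at 1984 and 1989 CPM and Cldn7 at 1010 and 1040 CPM, while Krt18 was higher in cluster 2, at 19500 and 13780 CPM, as was Krt8, at 1093 and 929 CPM.

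Between the libraries, 141 of 9767 genes (1.44%) were at least 2-fold higher and 332 (3.4%) lower in the KO-labelled than in the WT-labelled Krt18-high cells. In the other Krt14 cells 239 (1.82%) and 812 (6.19%) of 13115 genes were. Of the 141, 140 could be measured in the other Krt14 cells and 68 were 2-fold higher there too, while 9 were in the opposite direction. Of the 332, 172 were 2-fold lower there too and 5 were in the opposite direction. The same 2 libraries give both sets of values, and the clusters that hold the cells differ as given above.

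The named higher genes included hormone, matrix and smooth muscle genes. Esr1, the oestrogen receptor alpha, was at 1.62 CPM (14 UMIs) in the WT-labelled and 20.2 CPM (287 UMIs) in the KO-labelled Krt18-high cells, a log2 ratio of 3.64 (2.87 to 4.53), and was found in 4.05% and 52.8% of them. The other Krt14 cells showed as much, at 1.29 and 22.1 CPM. Mest, an imprinted gene whose locus overlaps Copg2 and Mir335, had 3 UMIs against 163 (log2 ratio 5.05, 3.48 to 7.34). Actg2 was at 7.86 and 67.8 CPM, Fbxo47, an F-box protein, at 0.693 and 7.67 CPM, and Sprr1a, a cornified envelope protein, at 69.0 and 524 CPM. The median cell held 17.8 and 57.5 CPM of Sprr1a, with single cells of up to 4416 and 34150 CPM. Lox, a cross-linker of collagen, Ogn, a matrix proteoglycan that overlaps Cenpp, Mdk, Mia, Gpx2 and Muc15 gave log2 ratios of 2.26 to 2.64. Uts2b, a urotensin peptide, was at 9.94 and 95.4 CPM, against 32.5 and 38.7 CPM in the other Krt14 cells.

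The named lower genes were of mixed role. Crip1, a small LIM-domain protein, was at 30.7 and 2.32 CPM (log2 ratio -3.73, -4.30 to -3.20), found in 34.1% and 10.8% of cells. Psmb8, an interferon-induced subunit of the proteasome, was at 18.1 and 1.41 CPM. Plet1, a surface protein of placenta and epidermis that overlaps Plet1os, was at 354 and 37.8 CPM, where the other Krt14 cells held 342 and 191 CPM. Ppbp, a platelet-type chemokine, was at 261 and 35.9 CPM, against 348 and 184 CPM. Sprr2d, Dnajc12, Smpdl3b, Tmem54, Khk, Nicn1, Gstm2 and the transcript listed as Mir147, which overlaps AA467197, gave log2 ratios of -3.63 to -2.66. All 12 were at least 2-fold lower in the KO-labelled members of cluster 2 and of cluster 8, each against the WT-labelled members of cluster 0. Of the 12 higher genes 10 were 2-fold higher in both, the exceptions being Gpx2 and Muc15, which in cluster 8 gave -0.05 and -2.54.

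**Figure D5:**
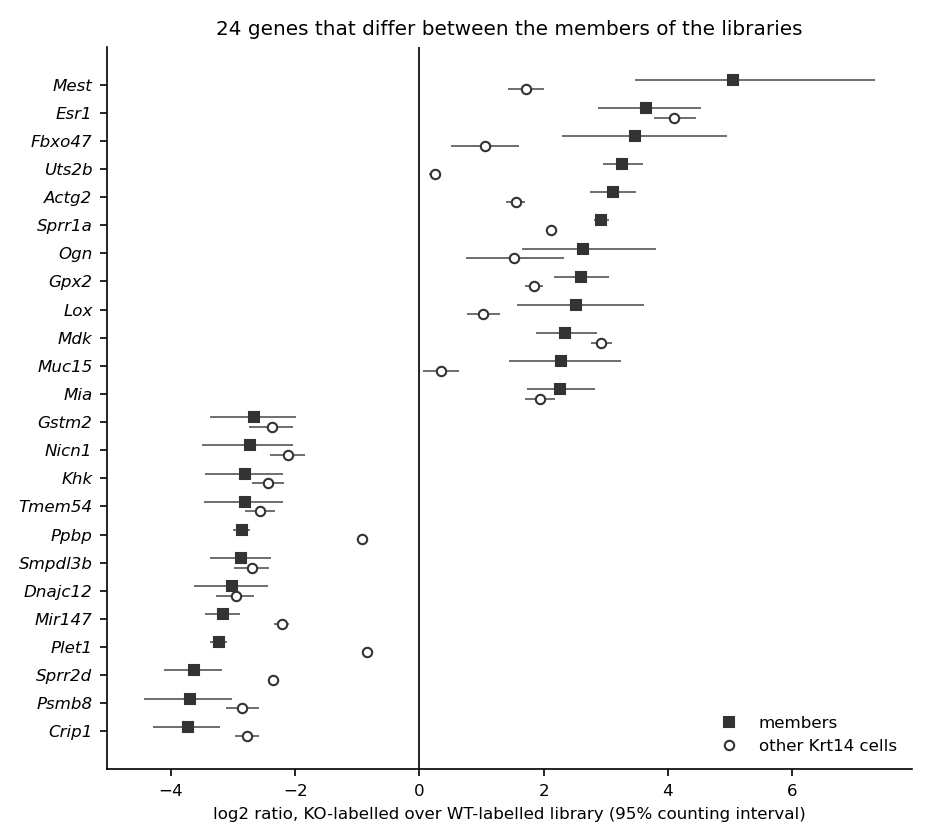
Log2 ratio of the KO-labelled over the WT-labelled library (horizontal axis, lines are 95% counting intervals) for the 24 named genes, in Krt18-high cells (members, filled squares) and in other Krt14 cells (open circles). In these sums Uts2b and Muc15 among the higher and Plet1 and Ppbp among the lower genes differ by 2-fold only in the Krt18-high cells. The medians over cells of Plet1 and Ppbp fall alike in both classes. Esr1 stands at 3.64 in the Krt18-high cells and 4.10 in the others.

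The 5 lists given here differed between the libraries inside the class in 1 direction, but were not the only ones to do so. Under the KO label 5 of 8 measured Schwann and glia genes (62.5%, against 14.8% of all genes) fell by at least 1.5-fold and 0 rose (median -0.81). In the other Krt14 cells 7 of 10 genes of that list fell and 0 rose (median -0.85). The annexin and S100 list had 5 of 14 down (35.7%) and 0 up (median -0.27). The melanocyte list had 2 of 11 down (18.2%, near the share of all genes) and 0 up. Some lists went both ways, such as the cornified list with 3 of 15 genes higher and 4 lower. Of 16 basal genes 10 were at least 1.5-fold lower under the KO label and 0 higher, where 14.8% of all genes were lower, with a median of -0.64 against -0.03 over all genes. Of 26 G2 and M phase genes 21 were lower (median -0.84), of 18 interferon response genes 10 (median -0.66), among them Isg15 with 173 and 81 UMIs (log2 ratio -1.81), and of 18 NF-kB target genes 9 (median -0.65), among them Il1a at 266 and 106 CPM and Cxcl2 at 268 and 107 CPM. None of these 4 lists had a gene higher by that much. Of 14 contractile genes 5 were higher (6.97% of all genes) and 0 lower, with a median of 0.28, among them Myl9 at 154 and 589 CPM. The other Krt14 cells gave medians of -0.42, -1.73, -0.55, -0.43 and 0.20 for the basal, G2 and M phase, interferon, NF-kB and contractile lists. Each of these 5 lists thus had the same sign there. By the same fold, 7.63% of all genes were higher and 17% lower in the other Krt14 cells, and of the contractile list 4 of 15 were higher and 1 lower.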

How the data were processed

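For each library the authors deposited a count table with a row per gene and a column per cell, whose integer values were taken to be UMIs. Cell Ranger 2.1, Seurat 2.0 and the build mm10 are listed in the submitters' processing notes, which do not say what each was used for. How cells were called, and whether counting used strand, is not given in the sources used here. Of 36528 NCBI gene identifiers 31049 matched a symbol of the RefSeq table for GRCm38.p6, and 5479 did not, which hold 2.67% of UMIs and were kept in the totals.

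UMIs were summed over Krt18-high cells and over the other Krt14 cells of each library, without a filter on cells (one of 500 genes, 10% mitochondrial UMIs and doublet calls removed none of the members), and scaled to CPM. Log2 ratios have conditional exact intervals at 95%, and a sum of 0 was set to a floor of 3 UMIs. Genes needed 100 UMIs and a 2-fold ratio to be called, list genes 20 UMIs and 1.5-fold. The members, lists and tests were chosen with earlier results of these data known. The 12 named genes of each direction were ranked by the smaller of the 2 libraries' ratios, or by the ratio between libraries, without the score genes and Krt14, genes 10 times higher in cells under the Krt14 limit, genes with over 50% of the UMIs in 1 cell, sex chromosome genes, haemoglobins and models named by a number. A further 18 genes were fixed by name, and others come from the 29 lists. Clusters came from Leiden (resolution 0.5) in scanpy 1.11.5 and doublet calls from Scrublet (rate 0.02). The code for the log2 ratios, their intervals and the calls by fold was checked on simulated counts. Alternatives changed the limits, the pseudocount of 10 CPM, the score genes, depth, UMI minimum, single cells and clusters, and those on clusters, single score genes and split UMIs were chosen after seeing the data. No p-value is given.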

Additional observations from a re-analysis of the deposited data

Results flagged for a closer look

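Uts2b, which encodes a urotensin peptide, was the 1 gene at least 2-fold apart in opposite directions in the libraries. Its log2 ratio of Krt18-high over other Krt14 cells was -1.71 (interval -2.04 to -1.40, 86 UMIs in Krt18-high cells) in the WT-labelled library and 1.30 (1.19 to 1.41, 1356 UMIs) in the KO-labelled one. A UMI was found in 20.2% and 36.0% of Krt18-high cells and in 17.4% and 22.5% of the other Krt14 cells. Inside cluster 2 the KO-labelled ratio was 2.27 and inside cluster 8 it was 0.40, and in cluster 0 the WT-labelled ratio was -0.90. The difference between the libraries was not tested.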

How the results depend on the processing

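The ratio of 2.07 between the shares of Krt18-high cells depended on which genes made the score and which clusters were in it. It was 1.41 without Krt8 and 1.46 without Krt18, 3.34 with Krt8 alone, and below 1 with Cldn3 alone (0.860) or Cldn7 alone (0.644). Without cluster 0 it was 5.90 and without cluster 2 it was 1.24. Thinning each cell to 8000 UMIs left 377 of 460 members shared and called 9 genes higher and 119 lower in Krt18-high cells, and 41 higher and 75 lower under the KO label, where fewer genes reach the UMI minimum by construction. A minimum of 20 UMIs called 30, 534, 358 and 844 genes in that order and no minimum 2471, 631, 845 and 3683, with the floor of 3 UMIs setting many of the last. Without the top cell of each gene 9 genes were higher in Krt18-high cells, without cluster 2 there were 7, and without clusters 5 and 6 there were 137 lower. Without cluster 0 the genes higher under the KO label numbered 267. Choosing cells on a random part of the UMIs and measuring on the rest kept 419 of 458 members. It called 13 genes higher, Krt8 and Krt18 of the score among them, and 188 lower of 10250.

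Log2 ratios that changed sign, with the cause not tested, were Chil1 without Krt8 (0.047), Acta1 without Krt18 (-0.19) and Cnfn without Cldn3 (1.87), all in the WT-labelled library, Cnfn without Cldn7 (0.65) and Aldh1a7 without cluster 2 (-0.12) in the KO-labelled one, and without clusters 5 and 6 Spink12 (0.067) and Cnfn (0.013) in the WT-labelled and Krt19 in both (0.91 and 0.039). In the top 15% by 1 score gene, 6 of the 12 named higher and 7 of the 12 named lower genes turned in at least 1 choice, down to -1.73 for Lmod1 and up to 2.07 for Cnfn and 1.68 for Chil1. The median of the mammary and sweat gland list was 0.060 after thinning in the WT-labelled library. Of the remaining values of single genes 2045 moved by less than their interval and 667 by more, and of list medians 943 and 138. No paired analysis was possible because each genotype is 1 library. Depth limits the genes under about 100 UMIs in a class, and sums weight deep cells more.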

Other observations

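Counted by gene, lists of other epithelia had few members higher in Krt18-high cells, while their summed levels per cell went different ways. At least 1.5-fold higher than in the other Krt14 cells of the WT-labelled and KO-labelled library were 3.35% and 4.2% of all genes, and 15.1% and 17.1% were lower. Of the luminal and glandular list, 0 of 22 and 2 of 21 measured genes were higher by that much, and 8 and 7 were lower. Lcn2, a secreted binder of iron carriers, stood at 192 against 576 CPM and 128 against 292 CPM. Of the periderm list 1 of 12 and 1 of 11 were higher and 4 and 3 lower, and of the hair follicle list 1 of 15 and 0 of 14 were higher and 5 and 6 lower. The medians of the summed lists were 28850 against 18880 CPM and 26030 against 17240 CPM for periderm, and 24190 against 14830 CPM and 21990 against 12950 CPM for hair follicle, both of which hold Krt17 (24936 against 17117 CPM and 22680 against 15532 CPM in the sums). Those of the mammary and sweat gland list were 285 against 146 CPM and 290 against 132 CPM. By gene, 0 of 10 and 1 of 8 measured genes of that list were higher and 5 and 5 lower (50% and 62.5%). It holds Wfdc18, whose medians over cells were 199.9 against 89.02 CPM and 258.5 against 79.11 CPM. The luminal and glandular list gave 10560 against 9583 CPM and 9136 against 8842 CPM. The sebaceous gland list was lower, at 628.5 against 768.6 CPM and 491.7 against 808.7 CPM.

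Single genes of mesenchymal change, inflammation and retinoid handling were lower. Snai2, a transcription factor of epithelial to mesenchymal change, stood at 22.8 against 61.9 CPM and 13.5 against 49.3 CPM, and 5 and 6 of 13 genes of its list were lower and 0 higher (38.5% and 46.2% lower, against 15.1% and 17.1% of all genes), with a summed median of 687 against 618 CPM and 1196 against 1257 CPM. Cxcl5, a chemokine for neutrophils and a target of NF-kB, stood at 149 against 541 CPM and 38.5 against 182 CPM, and its list summed to a median of 3327 against 3280 CPM and 1715 against 2003 CPM. Crabp2, a carrier of retinoic acid, stood at 30.7 against 96.9 CPM and 38.6 against 141 CPM. Of 16 genes of the YAP and TEAD target list, 1 and 4 were higher (6.25% and 25%) and 2 and 3 lower.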
